A study of Mus musculus with 8 samples.

Results

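The transcripts of 9 hematopoietic stem cell transcription factor genes, Mecom, Hlf, Meis1, Prdm16, Gata2, Erg, Gfi1, Gfi1b and Runx1, were read from a raw count table of 23358 genes. The set was chosen by name, without HOX genes and with earlier results of these data known. All 9 were present in the table and passed the filter on low counts, as did 14086 genes in all. The 8 RNA-seq libraries came from uncultured mouse bone marrow cells in the Lin-Sca+Kit+CD48-CD150+ gate, which enriches hematopoietic stem cells. The Mx1-Cre KO group held 3 libraries labelled Huwe1 KO with Mx1-Cre, described as an inducible deletion. The Vav-Cre KO group held 2 libraries labelled Huwe1 KO with Vav-Cre, described as a constitutive deletion. The WT group held 3 libraries labelled Huwe1 wild type. Huwe1 encodes a HECT-type ubiquitin ligase. The Mx1 promoter responds to interferon in many tissues and the Vav promoter is active in blood cells from development on. The labels do not say whether WT mice carried a Cre transgene or received an inducing agent, so the deletion, the Cre line and any induction cannot be told apart. The labels used here give no age, strain or number of animals, and p-values therefore measure only the spread between these libraries.

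Blood stem cells keep their identity through a network of DNA-binding proteins that act on one another's genes as well as on lineage genes. MECOM and PRDM16 are related zinc finger proteins with PR domains, and loss of either gene in mice depletes stem cells. HLF is a PAR bZIP factor whose transcript is enriched in primitive blood cells, and MEIS1 is a TALE homeodomain protein that binds DNA with PBX partners. GATA2 and ERG, a GATA and an ETS factor, are needed for stem cell survival and are counted with RUNX1 among the core regulators of this stage. RUNX1 binds DNA with its partner CBFB and also drives the formation of stem cells in the embryo. GFI1 and GFI1B are closely related zinc finger repressors that recruit the histone demethylase KDM1A (LSD1) and its partner RCOR1 (CoREST). In mice GFI1 restrains stem cell proliferation, and GFI1B restrains stem cell expansion and is needed for red cells and platelets.

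Upstream windows of 250 bases are shown for Gfi1b, Gfi1 and Prdm16, which were called in at least 1 comparison below, and for Mecom, the PR domain relative of Prdm16, to set the letters recognised by factors of the set beside the values that follow. The sequences are from RefSeq on GRCm38.p6, written 5′ to 3′ on the gene's own strand, which is the minus strand for all of those shown, and each ends 1 base before the annotated start. Capitals mark TGATAA, bound by GATA factors, and AAATCA, the core recognised by GFI1 and GFI1B. The first window belongs to Gfi1b (chr2:28621983-28622232), the second to Gfi1 (chr5:107725806-107726055, the first of 2 annotated starts), the third to Prdm16 (chr4:154636874-154637123) and the fourth to Mecom (chr3:30509760-30510009, the first of 2 starts).
Gfi1b: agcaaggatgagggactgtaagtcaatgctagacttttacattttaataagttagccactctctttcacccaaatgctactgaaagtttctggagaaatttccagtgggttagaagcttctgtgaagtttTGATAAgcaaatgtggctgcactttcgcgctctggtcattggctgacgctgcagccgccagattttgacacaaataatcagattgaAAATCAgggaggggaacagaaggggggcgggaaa
Gfi1: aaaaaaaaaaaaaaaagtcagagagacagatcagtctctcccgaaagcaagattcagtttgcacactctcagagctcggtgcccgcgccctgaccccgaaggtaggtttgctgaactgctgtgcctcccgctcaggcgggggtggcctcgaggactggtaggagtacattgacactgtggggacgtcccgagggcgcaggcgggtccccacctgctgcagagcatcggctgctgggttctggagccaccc
Prdm16: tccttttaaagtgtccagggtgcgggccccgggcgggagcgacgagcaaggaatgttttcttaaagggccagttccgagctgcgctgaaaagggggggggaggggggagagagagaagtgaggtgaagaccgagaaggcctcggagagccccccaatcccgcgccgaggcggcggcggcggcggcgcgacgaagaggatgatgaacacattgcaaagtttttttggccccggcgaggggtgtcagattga
Mecom: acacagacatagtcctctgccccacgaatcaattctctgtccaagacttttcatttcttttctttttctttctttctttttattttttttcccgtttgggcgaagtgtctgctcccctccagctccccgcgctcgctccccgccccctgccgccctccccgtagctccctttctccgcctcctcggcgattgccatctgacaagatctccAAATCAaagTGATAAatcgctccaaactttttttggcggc

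The Gfi1b window held TGATAA 120 to 115 bases before the start and AAATCA 34 to 29 bases before it. In the first Mecom window AAATCA lay 40 to 35 bases and TGATAA 31 to 26 bases before the start. The windows of Gfi1 (both starts) and Prdm16 held none of the 6 motifs searched on both strands, which were AAATCA for GFI1 and GFI1B, AGATAA and TGATAA for GATA factors, TGTGGT for RUNX, ACCGGAA for ETS and TGACAG for MEIS factors. None of these motifs overlaps another in the windows printed. Over all 32851 windows of the same length, AAATCA was in 12.4%, AGATAA in 9.99%, TGATAA in 7.94%, TGTGGT in 14%, ACCGGAA in 2.89% and TGACAG in 15.9%. Of the 15 windows of the 9 members, AAATCA was in 2, TGATAA in 2 and TGACAG in 2, while AGATAA was in 1, TGTGGT in 1 and ACCGGAA in 1. A match describes letters in a window and is not evidence of binding.

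Total counts were 28689765 to 33202926 per library, and the 9 transcripts together took 0.269 to 0.353% of them. Huwe1 itself was at 398 to 490 CPM (the count relative to library size, TMM-scaled as all CPM here) in every library. That gene-level count does not test the loss of single exons, so the KO labels are unchecked. Of 9 surface and reporter markers of stem cells, all were detected in all 8 libraries, although Fgd5, used as a stem cell reporter gene, was at 1.70 to 4.06 CPM in Mx1-Cre KO and 15.2 to 17.2 CPM in Vav-Cre KO libraries, against 50.01 to 59.4 CPM in WT libraries. Kit, Ly6a and Slamf1 on that list encode proteins of the sorting gate, so their detection is no separate test of stem cell content. In bulk samples such as these, fewer cells of a type and less RNA per cell cannot be told apart.

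Scaled by exon length, the set covered a wide range of transcript abundance. In Mx1-Cre KO libraries Meis1 (122 ± 41.3 CPM per kb), Gfi1b (118 ± 28.0), Hlf (93.2 ± 21.5) and Gata2 (89.2 ± 20.9) formed a top group whose ranges of mean ± SD overlapped (n = 3). In Vav-Cre KO libraries the order was Hlf (136 ± 8.16 CPM per kb), Gata2 (108 ± 33.1), Meis1 (107 ± 8.96) and Gfi1b (83.4 ± 1.27, n = 2). In WT libraries Gfi1b led (162 ± 8.27 CPM per kb), followed by Meis1 (117 ± 28.5) and Hlf (113 ± 9.46), which did not differ beyond their SD, and by Gata2 (68.0 ± 8.39, n = 3). These genes ranked above 95.3% or more of the 13173 tested genes with an annotated length in every group.

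The other 5 genes were less abundant per length. Runx1 and Mecom lay at 19.8 ± 1.72 and 13.0 ± 2.58 CPM per kb in Mx1-Cre KO libraries, at 19.5 ± 4.16 and 19.9 ± 2.48 in Vav-Cre KO libraries and at 18.7 ± 2.17 and 18.5 ± 1.39 in WT libraries, and they were within each other's SD except in Mx1-Cre KO libraries. At the bottom, Erg was at 4.49 ± 0.206, Prdm16 at 2.86 ± 0.549 and Gfi1 at 2.11 ± 0.299 CPM per kb in Mx1-Cre KO libraries. The same genes were at 5.22 ± 0.910, 5.05 ± 0.609 and 2.79 ± 0.432 CPM per kb in Vav-Cre KO libraries, and at 4.83 ± 0.673, 5.40 ± 0.258 and 4.68 ± 0.609 in WT libraries. In WT the ranges of mean ± SD of these 3 overlapped, while in Vav-Cre KO Gfi1 stood below the other two. Where the longest annotated transcript replaced the union of exons as the length, Meis1 came first and Gfi1b second in WT. The ranks of Hlf and Gata2 in the KO groups, of Gfi1b in Mx1-Cre KO, of Runx1 and Mecom in WT and of Erg and Gfi1 in WT changed as well.

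**Figure D1:**
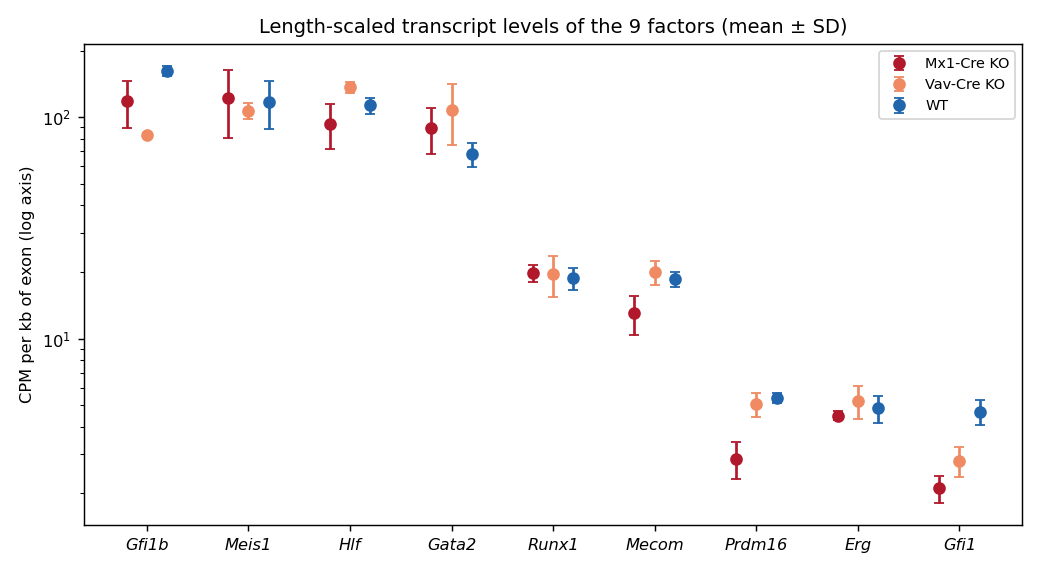
Transcript level of each factor in CPM per kb of exon on a log axis, as mean ± SD over libraries, for Mx1-Cre KO (n = 3), Vav-Cre KO (n = 2) and WT (n = 3). Gfi1b, Meis1, Hlf and Gata2 sit highest in all groups, and Gfi1 is at 2.11 and 2.79 CPM per kb in the KO groups against 4.68 in WT.

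Of the repressor pair Gfi1 and Gfi1b, Gfi1 fell in Mx1-Cre KO cells to 0.450 times its WT level, and both genes fell when the lines were averaged. Gfi1 was at 7.38, 5.62 and 7.13 CPM in Mx1-Cre KO libraries and at 9.88 and 7.93 CPM in Vav-Cre KO libraries, against 15.6, 16.4 and 12.7 CPM in WT libraries. Every KO library thus lay below every WT library, on 155 to 282 counts in KO and 409 to 500 in WT. The log2 fold change against WT was -1.15 ± 0.23 in Mx1-Cre KO (SE, edgeR quasi-likelihood test with Benjamini-Hochberg adjustment over all tested genes, adjusted p = 0.0295) and -0.74 ± 0.26 in Vav-Cre KO (edgeR adjusted p = 0.239). With both lines averaged it was -0.95 ± 0.20 (edgeR adjusted p = 0.0354). The Mx1-Cre call was lost when any WT or any Mx1-Cre KO library was left out (log2 fold changes -1.25 to -1.03, edgeR adjusted p up to 0.15). The averaged call was lost without any WT library, Mx1-Cre KO 1 or Vav-Cre KO 2, with log2 fold changes of -1.05 to -0.87 (edgeR adjusted p up to 0.208).

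Gfi1b, the more abundant gene of the pair, was at 162, 220 and 265 CPM in Mx1-Cre KO libraries and at 151 and 154 CPM in Vav-Cre KO libraries, against 281, 300 and 311 CPM in WT libraries. No KO library reached the WT range, and the Vav-Cre KO libraries were also below all Mx1-Cre KO libraries. The log2 fold change was -0.46 ± 0.17 in Mx1-Cre KO (edgeR adjusted p = 0.192, called by limma-voom at -0.70 with an adjusted p of 0.0098) and -0.96 ± 0.19 in Vav-Cre KO (edgeR adjusted p = 0.0631). Averaged over the lines it was -0.71 ± 0.15 and passed (edgeR adjusted p = 0.0341), but not without any WT or any Vav-Cre KO library (-0.80 to -0.63, adjusted p up to 0.159). In Vav-Cre KO alone Gfi1b passed with DESeq2 (adjusted p = 0.000231), without the filter on low counts (edgeR, 0.0279), in a fit of only those groups (edgeR, 0.0213) and without Mx1-Cre KO 1 or 3, which take part only in the estimate of spread (edgeR adjusted p = 0.0456 and 0.0337). The count ratio of Gfi1b to Gfi1 was 22.0, 39.0 and 37.1 in Mx1-Cre KO libraries and 15.3 and 19.5 in Vav-Cre KO libraries, against 18.0, 18.3 and 24.4 in WT libraries. The ratio overlapped WT in both lines.

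Megakaryocyte and erythroid markers varied beside Gfi1b. The summed level of 10 megakaryocyte and platelet markers was 759 to 990 CPM in Mx1-Cre KO, 571 to 1102 in Vav-Cre KO and 1268 to 1681 in WT libraries, with Gp6 at 0 in all 8 libraries. The sum of 9 erythroid markers was 152 to 295 CPM in Mx1-Cre KO, 20.6 to 53.0 in Vav-Cre KO and 109 to 208 in WT libraries, with the globin genes Hbb-b1 and Hba-a1, which have near-identical copies, listed at 0 throughout. Neutrophil and monocyte markers (10 genes) summed to 369 to 852 CPM in Mx1-Cre KO, 320 to 527 in Vav-Cre KO and 601 to 1462 in WT libraries. Myeloid progenitor markers (7 genes) summed to 171 to 220 CPM in Mx1-Cre KO, 161 to 391 in Vav-Cre KO and 454 to 726 in WT libraries. The part of these cell types in the Gfi1 and Gfi1b values was not tested.

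The PR domain factor gene Prdm16 fell in Mx1-Cre KO to 0.531 times its WT level, and Mecom lay below WT in the same libraries without a call. Its transcript was at 30.9, 28.1 and 21.0 CPM in Mx1-Cre KO libraries and at 43.0 and 51.0 CPM in Vav-Cre KO libraries, against 53.1, 48.9 and 48.9 CPM in WT libraries. All Mx1-Cre KO libraries were below every other library, while Vav-Cre KO and WT libraries overlapped. The log2 fold change against WT was -0.91 ± 0.18 in Mx1-Cre KO (95% interval -1.30 to -0.52, edgeR adjusted p = 0.0267). In Vav-Cre KO it was -0.10 ± 0.19 (95% interval -0.53 to 0.33, edgeR adjusted p = 0.893). The Mx1-Cre call was lost without any WT library and without Mx1-Cre KO 1 or 3 (log2 fold changes -1.03 to -0.77, edgeR adjusted p up to 0.111). Of the 9 stem cell markers 4 were also called lower in Mx1-Cre KO (among them Fgd5, Procr and Esam) and 1 in Vav-Cre KO (Fgd5), beside 2.49% and 0.511% of all tested genes called. The median log2 fold change of the 9 was -0.75 and -0.03. By value Kit (0.12) and Cd34 (0.33) were above WT in Mx1-Cre KO, and Slamf1 (0.68 ± 0.14, edgeR adjusted p = 0.0632) was in Vav-Cre KO. The summed level of the 9 markers was 2033 to 3966 CPM in Mx1-Cre KO, 3155 to 3315 in Vav-Cre KO and 3288 to 4073 in WT libraries. Endothelial and stromal markers (9 genes) summed to 80.6 to 114 CPM in Mx1-Cre KO, 127 to 132 in Vav-Cre KO and 171 to 197 in WT libraries, with Cdh5 at 0 in all Mx1-Cre KO libraries and at most 15 counts elsewhere. Their part in the Prdm16 value was not tested.

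Mecom was at 136, 197 and 150 CPM in Mx1-Cre KO libraries and at 269 and 225 CPM in Vav-Cre KO libraries, against 233, 212 and 246 CPM in WT libraries. Mx1-Cre KO libraries again lay below all others, with Mx1-Cre KO 2 the nearest to WT. Its log2 fold change in Mx1-Cre KO was -0.51 ± 0.16 and did not pass (edgeR adjusted p = 0.127), except with limma-voom and sample quality weights (adjusted p = 0.00971) and without Mx1-Cre KO 2 (edgeR adjusted p = 0.0426). In Vav-Cre KO it was 0.10 ± 0.18 (edgeR adjusted p = 0.869). The ratio of Prdm16 to Mecom counts was 0.227, 0.143 and 0.140 in Mx1-Cre KO libraries and 0.160 and 0.226 in Vav-Cre KO libraries, against 0.228, 0.231 and 0.199 in WT libraries.

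Hlf spread in opposite directions in the KO lines without a call in either. It was at 575, 784 and 509 CPM in Mx1-Cre KO libraries and at 872 and 949 CPM in Vav-Cre KO libraries, against 704, 736 and 826 CPM in WT libraries. Vav-Cre KO libraries lay above all others, and Mx1-Cre KO libraries overlapped WT. The log2 fold change was -0.28 ± 0.16 in Mx1-Cre KO (edgeR adjusted p = 0.437) and 0.27 ± 0.18 in Vav-Cre KO (edgeR adjusted p = 0.57).

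Gata2 was at 501, 361 and 584 CPM in Mx1-Cre KO libraries and at 458 and 710 CPM in Vav-Cre KO libraries, against 317, 378 and 405 CPM in WT libraries. Vav-Cre KO libraries were both above WT, and Mx1-Cre KO libraries overlapped WT. The log2 fold change was 0.39 ± 0.21 in Mx1-Cre KO (edgeR adjusted p = 0.386) and 0.67 ± 0.23 in Vav-Cre KO (edgeR adjusted p = 0.234). Without Vav-Cre KO 2 the Vav-Cre value was 0.32 (edgeR adjusted p = 0.76). That library had 6729 counts of the mast cell and basophil gene Fcer1a, against 57 in Vav-Cre KO 1, 211 to 411 in Mx1-Cre KO and 0 to 7 in WT libraries. The summed level of 9 mast cell and basophil markers was 29.2 to 42.3 CPM in Mx1-Cre KO, 17.8 and 242 in Vav-Cre KO and 16.6 to 20.0 in WT libraries, with the protease gene Mcpt4 at 0 in all 8. The median log2 fold change of the 6 tested genes of that list in Vav-Cre KO against WT was -0.13. It covers both Vav-Cre KO libraries, of which only Vav-Cre KO 2 had the high sum, and does not describe that library alone. Mcpt8 and Gzmb were at 0 in Vav-Cre KO 1, and Gzmb was also at 0 in WT 1 and WT 3. Fcer1a was called higher (9.51, edgeR adjusted p = 0.0376). Gzmb (6.47) and Cpa3 (1.07) were above WT by value, and Hdc (-2.70), Mcpt8 (-4.36) and Ms4a2 (-1.33) below, none of them called by edgeR. The part of such cells in the Gata2 value was not tested.

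Meis1, Erg and Runx1 were not called in any comparison, and their groups overlapped throughout. Meis1 was at 1124, 1775 and 950.0 CPM in Mx1-Cre KO libraries and at 1193 and 1059 CPM in Vav-Cre KO libraries, against 1575, 1119 and 1008 CPM in WT libraries. Its highest libraries, Mx1-Cre KO 2 and WT 1, came from different groups, and the 95% interval of its log2 fold change was -0.46 to 0.57 in Mx1-Cre KO and -0.71 to 0.45 in Vav-Cre KO. Erg was at 14.9, 16.3 and 15.4 CPM in Mx1-Cre KO libraries and at 15.9 and 20.3 CPM in Vav-Cre KO libraries, against 16.4, 14.6 and 19.3 CPM in WT libraries. Runx1 was at 225, 227 and 262 CPM in Mx1-Cre KO libraries and at 199 and 270.1 CPM in Vav-Cre KO libraries, against 197, 227 and 249 CPM in WT libraries. The log2 fold changes of both genes had intervals that include 0, of -0.54 to 0.32 and -0.37 to 0.59 for Erg and of -0.25 to 0.42 and -0.31 to 0.44 for Runx1 in Mx1-Cre KO and Vav-Cre KO. Changes of these 3 genes within the intervals were not excluded by these libraries.

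**Figure D2:**
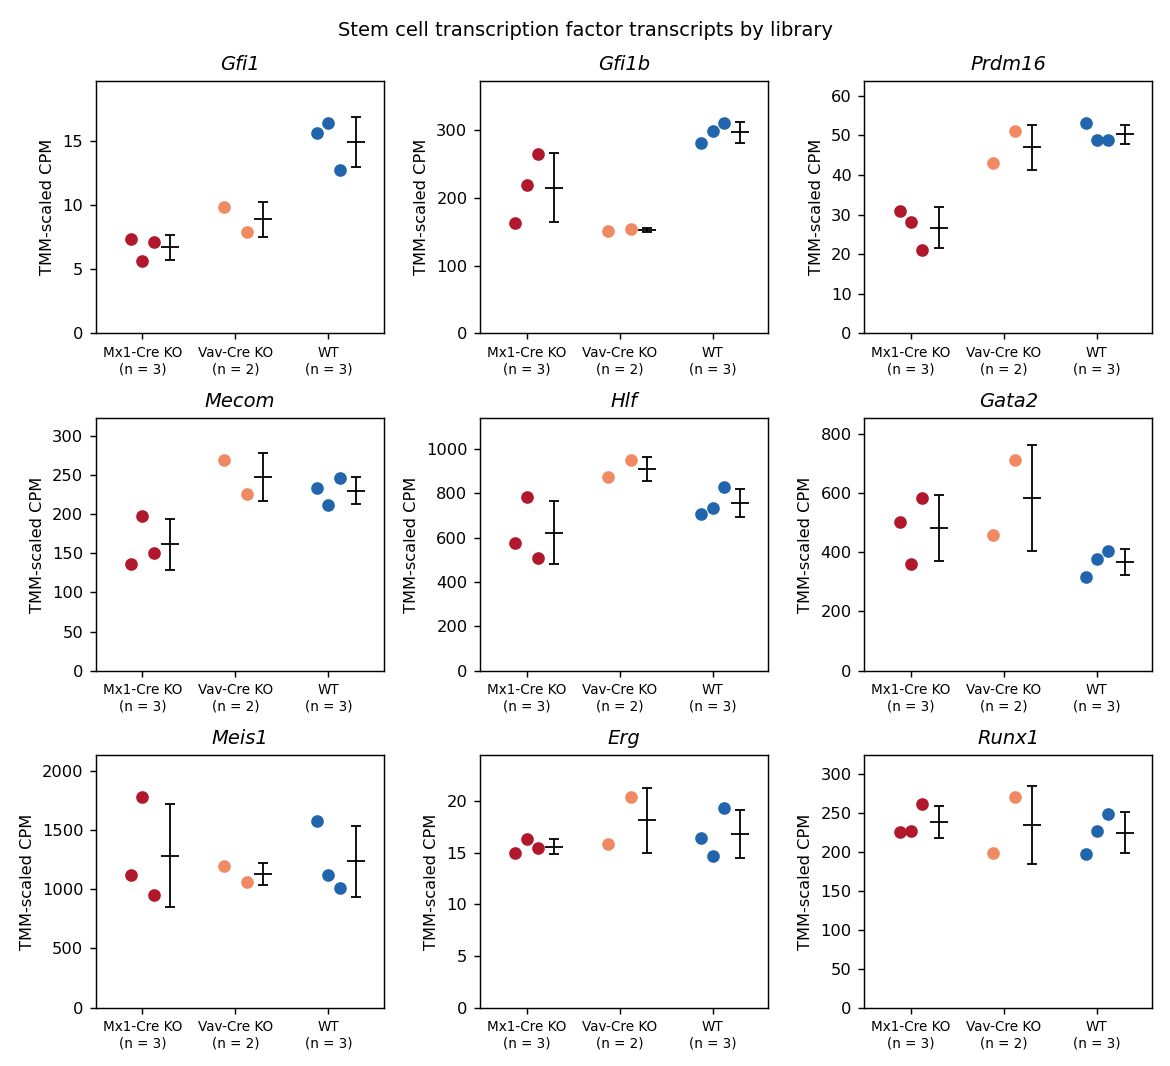
TMM-scaled CPM of each factor, with 1 panel per gene and its own axis from 0, points for single libraries and black marks for mean ± SD in Mx1-Cre KO (n = 3), Vav-Cre KO (n = 2) and WT (n = 3). Gfi1 and Gfi1b lie below WT in all 5 KO libraries, Prdm16 and Mecom in Mx1-Cre KO libraries, and Meis1, Erg and Runx1 overlap between groups.

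Over the set, 2 of 9 members were called in Mx1-Cre KO against WT, both lower, beside 2.49% of all tested genes (2.1% lower). DESeq2 called the same 2 and limma-voom 4, with Mecom and Gfi1b. The median log2 fold change of the members was -0.28, beside 0.01 over all tested genes. In Vav-Cre KO against WT edgeR called 0 of 9, beside 0.511% of tested genes, while 3 members had an unadjusted p under 0.05, beside 13.4% of tested genes. DESeq2 called 1 (Gfi1b) and limma-voom 0, and the members' median was 0.06 beside -0.01. With the lines averaged 2 of 9 were called lower, beside 2.65% of tested genes (2.1% lower), and the median was -0.04 beside 0.00. DESeq2 called 3 there, with Prdm16, and limma-voom 2. The percentages of called genes given here are for edgeR only. Over all tested genes DESeq2 also called more than edgeR in each of these comparisons, and limma-voom did in Mx1-Cre KO and averaged. Those numbers are in the closing section. These comparisons share the WT libraries, so their values are not independent of each other. Without overlap, 4 members were lower in all Mx1-Cre KO than in all WT libraries and 0 higher, beside 14.8% of tested genes lower and 10.9% higher. In Vav-Cre KO 2 members were lower (Gfi1 and Gfi1b) and 2 higher (Hlf and Gata2) without overlap, beside 17.1% and 15.6% of tested genes (32.8% in either direction).

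When the lines were set against each other, Prdm16, Mecom and Hlf were higher and Gfi1b lower in Vav-Cre KO than in Mx1-Cre KO libraries by value, but none passed. The log2 difference, Vav-Cre KO minus Mx1-Cre KO, was 0.82 ± 0.19 for Prdm16 (edgeR adjusted p = 0.148) and 0.62 ± 0.17 for Mecom (edgeR adjusted p = 0.192). It was 0.55 ± 0.18 for Hlf (edgeR adjusted p = 0.24) and -0.50 ± 0.19 for Gfi1b (edgeR adjusted p = 0.301). For Gfi1, Gata2, Erg, Meis1 and Runx1 it was 0.41 ± 0.25, 0.28 ± 0.23, 0.22 ± 0.22, -0.19 ± 0.26 and -0.02 ± 0.17. Across the set edgeR called 0 of 9, beside 0.17% of tested genes (0.114% higher and 0.0568% lower). An unadjusted p under 0.05 was found for 4 members, beside 13.3% of tested genes. DESeq2 called 1 (Prdm16, adjusted p = 0.0123) and limma-voom 0, and DESeq2 also called more of all tested genes than edgeR there. Without overlap, Mecom, Hlf, Prdm16 and Gfi1 were higher and Gfi1b lower in Vav-Cre KO libraries, beside 13.8% and 12% of tested genes. A Prdm16 call in Mx1-Cre KO and not in Vav-Cre KO is thus not shown to be a difference between the lines by the edgeR test.

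**Figure D3:**
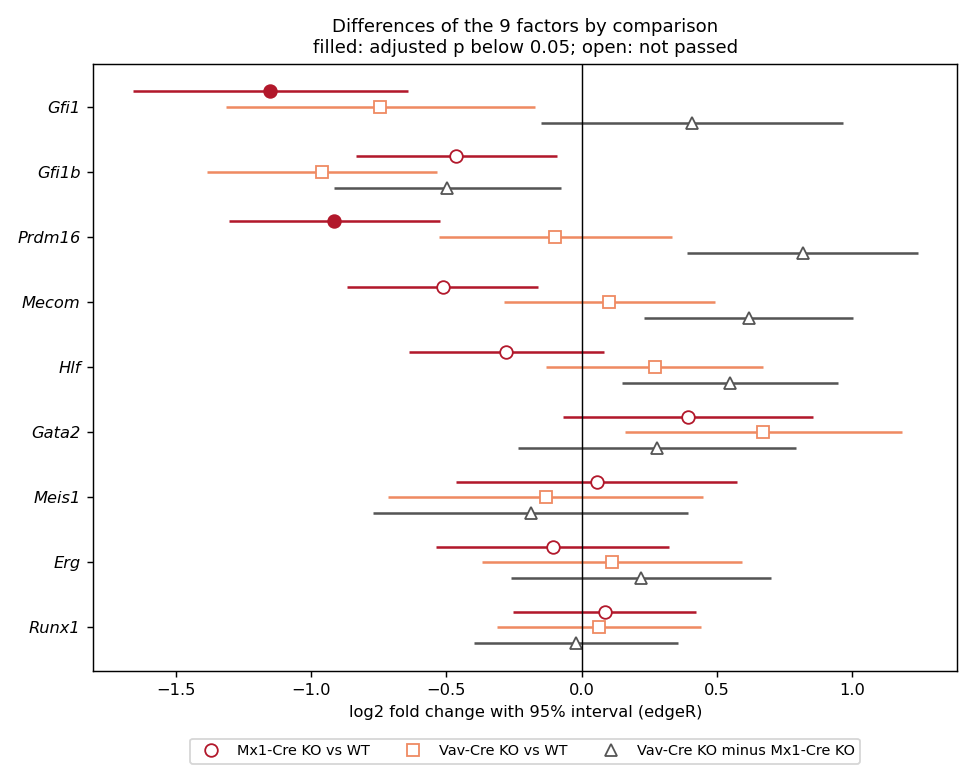
Log2 fold change with its 95% interval for each factor in Mx1-Cre KO against WT, Vav-Cre KO against WT and Vav-Cre KO minus Mx1-Cre KO, with filled marks where the edgeR adjusted p was below 0.05. The filled marks are Gfi1 at -1.15 and Prdm16 at -0.91, both in Mx1-Cre KO against WT.

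Relatives, partners and reported targets of the factors were read from the same fit, 90 genes of which 88 passed the filter. In Mx1-Cre KO edgeR called 2 higher and 5 lower (DESeq2 called 16 in all and limma-voom 20), in Vav-Cre KO 0 higher and 1 lower (DESeq2 called 9 and limma-voom 2), and between the lines 0 (13 at an unadjusted p under 0.05, 6 by DESeq2 and 0 by limma-voom). Their median log2 fold change was 0.00 in Mx1-Cre KO and 0.10 in Vav-Cre KO. Of all tested genes edgeR called 2.49% in Mx1-Cre KO, 0.511% in Vav-Cre KO and 0.17% between the lines. An unadjusted p under 0.05 was found for 16.6%, 13.4% and 13.3% of them. The same shares stand beside the edgeR counts of each list below. DESeq2 called more of all tested genes than edgeR in each of these comparisons, and limma-voom did in Mx1-Cre KO. The DESeq2 and limma-voom counts here and below can therefore not be read against the edgeR shares. The larger numbers of all genes called by these tools are in the closing section.

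None of the 10 tested corepressor genes used by GFI1 and GFI1B was called in either line or between them, with medians of 0.14 in Mx1-Cre KO and 0.17 in Vav-Cre KO, 0 and 1 members at an unadjusted p under 0.05, and 0 called by DESeq2 or limma-voom. Kdm1a, which encodes the demethylase that both proteins recruit, had a log2 fold change of 0.18 ± 0.17 in Mx1-Cre KO (edgeR adjusted p = 0.68) and 0.44 ± 0.19 in Vav-Cre KO (edgeR adjusted p = 0.357). The deacetylase gene Hdac1 was at 0.12 ± 0.11 and -0.18 ± 0.13 in those comparisons. Of 11 PRDM relatives and corepressors of MECOM and PRDM16, edgeR called 0 in each line and between them. The medians were 0.00 in Mx1-Cre KO and 0.12 in Vav-Cre KO, with 3 and 0 members at an unadjusted p under 0.05. DESeq2 and limma-voom each called 1 in Mx1-Cre KO and 0 in Vav-Cre KO and between the lines. The corepressor gene Ctbp2 was at 0.28 ± 0.12 in Mx1-Cre KO (edgeR adjusted p = 0.268).

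In the ETS list 1 of 11 genes was called in Mx1-Cre KO (1 by DESeq2 and 2 by limma-voom), with a median of 0.14 there. In Vav-Cre KO the median was -0.03, edgeR, DESeq2 and limma-voom called 0, and 3 genes had an unadjusted p under 0.05. Elk3, which encodes a ternary complex factor, fell to 52.8, 64.3 and 53.5 CPM in Mx1-Cre KO libraries, against 85.4, 86.1 and 102 CPM in WT libraries (log2 fold change -0.68 ± 0.14, edgeR adjusted p = 0.033). In Vav-Cre KO it was at 78.7 and 83.5 CPM (-0.17 ± 0.16, edgeR adjusted p = 0.71). The Elk3 call was lost without any WT library and without Mx1-Cre KO 1 or 3 (-0.77 to -0.59, edgeR adjusted p up to 0.152). Spib, a B cell factor gene, had 0 counts in both Vav-Cre KO libraries, 8 to 18 in Mx1-Cre KO and 0 to 14 in WT libraries.

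Among 6 RUNX relatives and partners, Runx1t1, which encodes the corepressor ETO, fell in Mx1-Cre KO. It had 42, 142 and 71 counts in Mx1-Cre KO libraries and 118 and 124 in Vav-Cre KO libraries, against 526, 588 and 750 in WT libraries. All 5 KO libraries were below the WT range. The log2 fold change was -2.75 ± 0.43 in Mx1-Cre KO (edgeR adjusted p = 0.012) and -2.33 ± 0.49 in Vav-Cre KO (edgeR adjusted p = 0.0708, called by DESeq2 and limma-voom). The Mx1-Cre call was lost without WT 2 or WT 3 (edgeR adjusted p up to 0.0588). EdgeR and DESeq2 called none of the other 5 genes of the list in either line, and its median was 0.17 in Mx1-Cre KO and 0.15 in Vav-Cre KO. Cbfa2t2, an ETO relative, was at 0.60 ± 0.25 in Mx1-Cre KO (edgeR adjusted p = 0.268, called by limma-voom).

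Of 9 GATA relatives and cofactors edgeR called 0 in each line and between them, with medians of 0.08 in Mx1-Cre KO and 0.12 in Vav-Cre KO. Genes at an unadjusted p under 0.05 numbered 2 in Mx1-Cre KO, 1 in Vav-Cre KO and 2 between the lines, and DESeq2 and limma-voom also called 0 in Mx1-Cre KO. Gata1, the erythroid and megakaryocyte factor gene, was at 101, 91.0 and 132 CPM in Mx1-Cre KO libraries and at 56.7 and 58.2 CPM in Vav-Cre KO libraries, against 98.5, 109 and 123 CPM in WT libraries. The Vav-Cre KO libraries were the lowest of the 8, as for Gfi1b and for the erythroid marker sum. Its log2 fold change was -0.94 ± 0.18 in Vav-Cre KO (edgeR adjusted p = 0.0556, called by DESeq2) and -0.03 ± 0.16 in Mx1-Cre KO (edgeR adjusted p = 0.951). Between the lines Gata1 differed by -0.91 ± 0.18 (edgeR adjusted p = 0.0949). Gata3 differed by 0.98 ± 0.24 between the lines (edgeR adjusted p = 0.154), and DESeq2 called both genes there, limma-voom neither.

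Of 9 tested TALE genes and MEIS1 partners edgeR called 0 in each line and between them, with medians of -0.23 in Mx1-Cre KO and 0.14 in Vav-Cre KO and 2, 1 and 4 genes at an unadjusted p under 0.05 in Mx1-Cre KO, in Vav-Cre KO and between the lines. Meis2 had 0 counts in all Mx1-Cre KO libraries and 21 and 50 in Vav-Cre KO libraries, against 5, 8 and 39 in WT libraries. Against a floor of 3 counts per library its mean was at least 5.33-fold lower in Mx1-Cre KO than in WT, a bound of 2.08-fold without WT 3 (edgeR adjusted p = 0.0697, called by DESeq2 and limma-voom), and the list's median is -0.23 with Meis2 at that bound. DESeq2 called 3 genes of the list between the lines (Meis2, Pknox1 and Tgif1) and limma-voom 0. Tgif1 was at 37.4 to 47.2 CPM in Mx1-Cre KO and 56.5 and 92.5 CPM in Vav-Cre KO, against 44.3 to 48.2 CPM in WT libraries (log2 fold change in Vav-Cre KO 0.67 ± 0.21, edgeR adjusted p = 0.202). Of the 3 bZIP relatives of HLF edgeR called 0 in each line and between them, with 3, 1 and 0 at an unadjusted p under 0.05. Tef, whose protein binds the same sites as HLF, was at 0.44 ± 0.18 in Mx1-Cre KO (edgeR adjusted p = 0.239) and 0.64 ± 0.19 in Vav-Cre KO (edgeR adjusted p = 0.189). The repressor gene Nfil3 was at -1.95 ± 0.66 and -1.18 ± 0.73 on 6 to 94 counts, and limma-voom called both genes in Mx1-Cre KO. DESeq2 called 0 of the list in either line or between them, and Tef with the lines averaged, as did limma-voom.

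Of 14 reported target genes of the factors, edgeR called 1 higher and 2 lower in Mx1-Cre KO (DESeq2 and limma-voom called 7 each) and 1 lower in Vav-Cre KO (DESeq2 2 and limma-voom 1), and the median log2 fold change was -0.71 and -0.47. Id2, which encodes an inhibitor of helix-loop-helix factors and is reported as repressed by GFI1, had 109, 144 and 123 counts in Mx1-Cre KO libraries and 142 and 215 in Vav-Cre KO libraries, against 262, 444 and 526 in WT libraries. It fell in Mx1-Cre KO (-1.61 ± 0.31, edgeR adjusted p = 0.0272), a call lost without WT 2 or 3 and without Mx1-Cre KO 1 or 3 (edgeR adjusted p up to 0.129). Its value in Vav-Cre KO was -1.18 ± 0.35 (edgeR adjusted p = 0.184). Mpo, the myeloperoxidase gene of neutrophil precursors, fell in Mx1-Cre KO (-1.67 ± 0.25, edgeR adjusted p = 0.0103) and in Vav-Cre KO (-2.10 ± 0.29, edgeR adjusted p = 0.0244). It is also 1 of the 7 myeloid progenitor markers summed above. Cdkn1a, the p21 cell cycle inhibitor gene, rose in Mx1-Cre KO to 9.57, 6.35 and 21.5 CPM, against 3.17, 1.84 and 3.39 CPM in WT libraries (2.15 ± 0.45, edgeR adjusted p = 0.0352). In Vav-Cre KO Cdkn1a was at 1.33 ± 0.48 (edgeR adjusted p = 0.256).

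The Mpo calls were lost without WT 2 in Mx1-Cre KO (edgeR adjusted p = 0.0513) and without WT 2 or Vav-Cre KO 2 in Vav-Cre KO (edgeR adjusted p up to 0.101). The Cdkn1a call was lost without any WT library and without Mx1-Cre KO 1 or 3, with log2 fold changes of 1.51 to 2.48 (edgeR adjusted p up to 0.159). Among 15 other stem cell regulators, edgeR called 1 higher and 1 lower in Mx1-Cre KO (DESeq2 and limma-voom called 5 each), with a median of 0.00 there. In Vav-Cre KO the median was 0.28, edgeR and limma-voom called 0, DESeq2 called 5 and 6 genes were below 0.05 before adjustment. Nfia, a nuclear factor I gene, rose to 424, 466 and 319 CPM in Mx1-Cre KO libraries, against 266, 236 and 209 CPM in WT libraries (0.77 ± 0.17, edgeR adjusted p = 0.043). In Vav-Cre KO it was at 443 and 360.0 CPM (0.76 ± 0.18, edgeR adjusted p = 0.104). Its Mx1-Cre call was lost without any WT library, without Mx1-Cre KO 1 or 2 (edgeR adjusted p up to 0.191) and with library totals as the only scaling (edgeR adjusted p = 0.0504). Ndn, which encodes the growth suppressor necdin, fell in Mx1-Cre KO (-2.33 ± 0.27, edgeR adjusted p = 0.00442) whichever library was left out. In Vav-Cre KO Ndn was at -1.39 ± 0.30 (edgeR adjusted p = 0.0731, called by DESeq2 but not by limma-voom). Mllt3, a stem cell maintenance gene in human cells, was at -0.54 ± 0.17 in Mx1-Cre KO and 0.40 ± 0.19 in Vav-Cre KO, with a difference between the lines of 0.94 ± 0.19 (edgeR adjusted p = 0.0998).

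**Figure D4:**
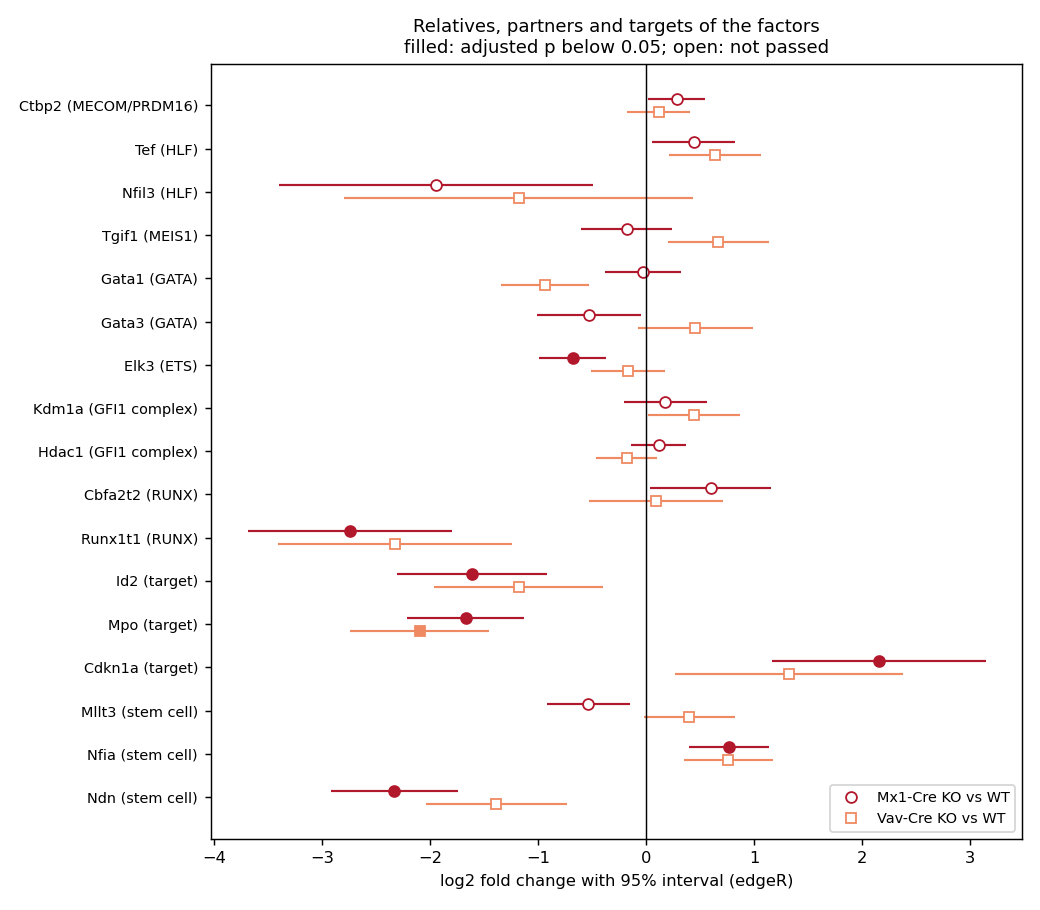
Log2 fold change with its 95% interval for relatives, partners and targets in Mx1-Cre KO (circles) and Vav-Cre KO (squares) against WT, with the list in brackets and filled marks where the edgeR adjusted p was below 0.05. Meis2 and Spib, which have a group at 0, are among the genes left out. Runx1t1 at -2.75 and Ndn at -2.33 are the lowest called values and Cdkn1a at 2.15 the highest.

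The closest expression profiles to the called members were sought among 9575 genes with a mean log2 CPM of at least 3. Likeness was the root mean square difference over the 8 libraries between log2 CPM profiles, each centred on its own mean. The nearest genes were picked as the smallest differences, so they lie below the median and follow the member by selection. Members without a call had near genes as well, at 0.0658 for Meis1 (median 0.38) and 0.069 for Runx1 (median 0.274). Nearest to Prdm16 were Eml5 (0.0862), Esam (0.118) and Gnb5 (0.121), where the median over genes was 0.533. Esam, an endothelial adhesion gene also used as a stem cell marker, was at 128 ± 17.4 CPM in Mx1-Cre KO (n = 3) and 201 ± 19.9 in Vav-Cre KO (n = 2), against 222 ± 32.6 CPM in WT libraries (n = 3). Nearest to Gfi1 were Ldlrad3 (0.135), the macrophage growth factor gene Csf1 (0.141) and Zfp420 (0.16), with a median of 0.586, and nearest to Gfi1b were Arl3 (0.154), Rnmtl1 (0.163) and Tex261 (0.166), with a median of 0.481. Csf1, which is on the list of reported targets, was at 5.96 ± 1.34 CPM in Mx1-Cre KO and 7.70 ± 0.287 in Vav-Cre KO, against 12.5 ± 2.22 CPM in WT libraries, and was not called by edgeR in either line (adjusted p = 0.0598 and 0.325), while DESeq2 and limma-voom called it in Mx1-Cre KO.

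Library preparation was unstranded, so reads of overlapping genes on opposite strands cannot be told apart. In the GENCODE M21 annotation (GRCm38), antisense exons cover 3.17% of the exon bases of Gfi1, 0.652% of Mecom, 8.51% of Meis1, 1.17% of Prdm16 and 0.881% of Runx1, and a gene on the same strand covers 9.77% of Meis1. None of these overlapping genes was among the counted genes. Gfi1b, Gata2, Hlf and Erg have no such overlap there. On GRCm38 Gfi1b lies at chr2:28609450-28621982, Gfi1 at chr5:107716657-107726036, Prdm16 at chr4:154316125-154636873 and Mecom at chr3:29951296-30548008, all on the minus strand.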

How the data were processed

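The 8 libraries of sorted mouse stem cells were read from a count table deposited by the authors, with raw counts by gene symbol. Libraries were made with the SMARTer Ultra Low Input and NEBNext kits without strand information, per the labels' protocols. The submitters' processing notes name mm9 and, without versions, TopHat, SAMtools, HTSeq and edgeR. The annotation used for counting is not given in the sources used here. A second deposited table holds CPM values, which for its 12457 genes are the counts over library totals (largest relative difference 5.1e-15). It lists all 9 members and served only for that check. Samples were grouped by their titles.

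Counts were tested with edgeR 4.0.16 (R 4.3.3) by the quasi-likelihood test after TMM scaling of the genes kept by filterByExpr (count of 10, total of 15, the defaults), in 1 model over the 8 libraries with group as the only term. p-values were adjusted by Benjamini-Hochberg over 14086 genes, and a gene was called below 0.05. SEs were taken as the size of the log2 fold change over the root of F. Profiles on the log2 CPM scale used a prior count of 2. Lengths are unions of GENCODE M21 exons. The fit was tested on simulated data. Alternatives were DESeq2 1.42.0, limma-voom (limma 3.58.1) with quality weights, other scalings, no filter, fits restricted to the compared groups, a replicate block and each library left out. Total counts and intervals cover reads without molecular identifiers. No libraries of a group were repeats of each other (27.5 to 127 as chi-square over its degrees of freedom), and same-group libraries correlated at r = 0.954 to 0.978 across genes.

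The members and lists were chosen with earlier results of these data known. Named list genes were those called in a line against WT or between the lines, and the 2 with the smallest p. Some genes under these rules are not reported here. For likeness, the 3 nearest genes were named for members called in any comparison. Spi1 was read as Sfpi1, its older symbol in RefSeq.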

Additional observations from a re-analysis of the deposited data

How the results depend on the processing

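Numbers of genes called over the whole table moved by more than 1.5 times as follows. In Mx1-Cre KO against WT (351), DESeq2 gave 1042, limma-voom 1815 and a fit of only those groups 575, and leaving out single libraries gave 58 to 565. In Vav-Cre KO against WT (72), the values were 593 with DESeq2, 174 without the filter, 111 with only those groups and 5 to 196 with single libraries left out. With the lines averaged (373) they were 953, 992 with limma-voom, and 22 to 502. Between the lines (24) they were 462 with DESeq2, 81 without the filter, 10 with limma-voom, 3 with only those groups and 3 to 412 with single libraries left out. Members called were 4 in Mx1-Cre KO with limma-voom and 0 to 2 with libraries left out. In Vav-Cre KO they were 1 with DESeq2, 1 without the filter, 1 with only those groups and 0 to 1 with libraries left out, averaged 0 to 2 and between the lines 1 with DESeq2 and 0 with libraries left out. The cause was not tested, except that fewer libraries enter some fits.

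Deviations from the group mean of same-numbered libraries correlated at -0.0705 to 0.129, and those of differently numbered libraries at -0.177 to 0.163. These values show no sign of pairing by replicate number but cannot exclude it. With 2 Vav-Cre KO libraries, the deviations of that group mirror each other. With the replicate block 235, 20, 218 and 9 genes were called in Mx1-Cre KO, in Vav-Cre KO, averaged and between the lines, and 1, 0, 1 and 0 members. Gfi1 was then at an edgeR adjusted p of 0.0542 in Mx1-Cre KO and 0.0655 averaged, Elk3 at 0.0657, and Prdm16 was still called (0.0454).

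Of 531 member values under alternatives, 460 kept direction and call, 23 lost a call, 10 gained one and 38, none called, changed sign. Sign changes outside the left-out libraries were Meis1 in Mx1-Cre KO (-0.026 with library totals), averaged Hlf (0.0013 with DESeq2 and 0.0013 with its size factors), averaged Meis1 (0.020 with limma-voom), averaged Erg (-0.047 with library totals and -0.0013 with limma-voom) and Runx1 between the lines (0.040 with library totals, 0.0042 with limma-voom and 0.042 with the replicate block). With single libraries left out, log2 fold changes in Mx1-Cre KO ranged from -0.24 to 0.27 for Meis1, -0.20 to 0.0020 for Erg and -0.00066 to 0.16 for Runx1. In Vav-Cre KO they ranged from -0.031 to 0.23 for Mecom, -0.27 to 0.083 for Meis1, -0.23 to 0.020 for Prdm16, -0.078 to 0.28 for Erg and -0.17 to 0.27 for Runx1. Averaged they ranged from -0.095 to 0.062 for Hlf, -0.19 to 0.18 for Meis1, -0.092 to 0.11 for Erg and -0.043 to 0.18 for Runx1, and between the lines from -0.36 to 0.11 for Meis1, -0.075 to 0.56 for Gata2 and -0.26 to 0.18 for Runx1. Of 531 counts over the other lists 86 moved by more than 1.5 times, 56 up and 30 down. Under other scalings the shift of the median log2 fold change of all genes was at most -0.0796 in size (library totals, Mx1-Cre KO). Mecom in Mx1-Cre KO (95% interval -0.87 to -0.16) and Gata2 in Vav-Cre KO (0.16 to 1.18) had intervals without 0 but did not pass the edgeR adjustment over all genes.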
